A study of Mus musculus with 9 samples.

Results

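TGF-beta, the activins and the bone morphogenetic proteins (BMPs) are dimeric ligands that signal through receptor pairs. A type II receptor kinase binds the ligand and phosphorylates a type I receptor kinase, which then phosphorylates receptor SMADs that enter the nucleus with Smad4. In bone marrow TGF-beta is known as a signal that keeps stem cells quiescent and restrains early progenitors, and megakaryocytes are a known source of it. Tgfbr3 (betaglycan) is a co-receptor without a kinase that presents TGF-beta to the type II receptor and is itself a proteoglycan that carries glycosaminoglycan chains. The genes described here are 10 members of this system, chosen by name from 35275 genes in the count table. They are the ligand gene Tgfb1, the type I receptors Tgfbr1, Acvr1, Acvr1b and Bmpr1a, the type II receptors Tgfbr2, Acvr2a, Acvr2b and Bmpr2, and Tgfbr3.

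Bulk RNA-seq was done on megakaryocyte-erythroid progenitors (MEPs, Lin-ckit+CD34-FcγRII/IIIlo) of wild-type C57Bl/6 mice aged 6 to 12 weeks, with no treatment named in the sources used here. The MEPs were sorted by binding of HS3A8, a single chain antibody fragment (scFv) that recognizes a modified form of heparan sulfate (HS). The 50% of MEPs with the strongest binding formed the HS3A8-high group (the high fraction) and the 50% with the weakest binding the HS3A8-low group (the low fraction), while MPB49, an scFv with no known epitope, gave a mock-sorted control that stands for total MEPs. There were 3 libraries per group, from 25000 cells each. The study gives individual mice as replicates for these data, but whether the libraries of both fractions share a mouse is not given in the sources used here. P-values therefore measure the spread between these libraries. In bulk samples, fewer cells of a type and less RNA per cell cannot be told apart.

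Total counts ranged from 11781637 to 15850037 per library. Levels are CPM, counts relative to the library total, scaled by TMM (a correction for library composition). Where a gene had a count of 0, as many as 3 counts remain possible, or 0.177 to 0.270 CPM depending on the library. Such limits cover counting error only. Marker genes of 10 cell types were summed in each library. The erythroid sum was 15480 to 16340 CPM in HS3A8-high, 11740 to 13160 in HS3A8-low and 13330 to 15150 in the control, with none of its 15 genes found in the table at 0 throughout a group. Its ranges in the fractions did not overlap. The megakaryocyte sum was 89.5 to 129 CPM in HS3A8-high, 269 to 499.6 in HS3A8-low and 211 to 334 in the control. Markers of cells outside the MEP gate were also higher in HS3A8-low. Stem and multipotent progenitor markers summed to 17.3 to 35.2 CPM in the high fraction and 193 to 229 in the low fraction, and T and NK cell markers to 4.27 to 33.4 and 188 to 227. Cd4 was at 0 in every library of both fractions. Granulocyte and monocyte markers set replicate 3 of both fractions apart, with 2029 CPM in HS3A8-high replicate 3 and 5166 in HS3A8-low replicate 3, against 13.2 to 308 in the other 4 sorted libraries. Basophil and mast cell sums were also highest in replicate 3 of HS3A8-high and HS3A8-low (80.9 and 166.3 CPM), against 1.65 to 28 in the other sorted libraries. Macrophage sums were 19.05 and 43.5 CPM there, against 1.21 to 5.59. B cell and mesenchymal stroma sums reached at most 13.5 and 35.4 CPM. The endothelial sum was 7.10 to 10.1 CPM in the high fraction and 52.3 to 68.5 in the low fraction, with Cdh5 at 0 in both. The part of these cells in the results below was not tested beyond the values given.

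The start regions of the 3 best-measured signalling members are shown because their genes held most of the reads of the ligand and kinase receptors. RefSeq sequences of the 250 bases before the transcription start (GRCm38.p6, the build of mm10) matched 9 of the 10 members, and Tgfbr3 was not matched. Capitals mark matches on either strand. The motifs were AGGAAG and, as a second form for ETS factors, CCGGAA. A SMAD element was searched as CAGAC and the GC box as GGGCGG. Sites of the GATA factors were searched as AGATAA with, as a second form, TGATAA. No motif overlapped another kind in these 3 regions.
Tgfbr2, chr9:116175364-116175613, minus strand: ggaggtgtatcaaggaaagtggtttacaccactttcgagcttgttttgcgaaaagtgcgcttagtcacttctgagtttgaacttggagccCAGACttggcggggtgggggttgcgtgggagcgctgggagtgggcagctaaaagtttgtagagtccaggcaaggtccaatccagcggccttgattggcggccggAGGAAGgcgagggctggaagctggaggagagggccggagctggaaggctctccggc
Tgfb1, chr7:25686752-25687001, plus strand: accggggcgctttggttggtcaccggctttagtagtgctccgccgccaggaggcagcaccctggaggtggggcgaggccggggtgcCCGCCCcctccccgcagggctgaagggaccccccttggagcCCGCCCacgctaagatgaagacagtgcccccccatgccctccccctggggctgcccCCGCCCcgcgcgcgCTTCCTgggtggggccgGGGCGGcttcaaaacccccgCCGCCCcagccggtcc
Tgfbr1, chr4:47352972-47353221, plus strand: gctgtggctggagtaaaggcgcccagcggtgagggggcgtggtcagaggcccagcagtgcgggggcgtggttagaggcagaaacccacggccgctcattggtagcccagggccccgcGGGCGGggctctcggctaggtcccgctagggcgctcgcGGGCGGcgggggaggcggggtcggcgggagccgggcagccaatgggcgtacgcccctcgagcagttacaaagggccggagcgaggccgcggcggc
In the Tgfbr2 region GC content was 58.4%, against 75.2% for Tgfb1, 74.8% for Tgfbr1 and a median of 52.4% over 32851 promoters. It held an ETS match 56 bases and a SMAD match 160 bases before the start, and no GC box. A GC box was present in the other 8 members and in 32.7% of all promoters. ETS matches were found in 4 members (38.2% of all promoters), SMAD matches in 3 (42.2%) and GATA matches in 0 (16.6%). A match describes letters in this window and not a bound site.

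Per kilobase of annotated exons, the TGF-beta ligand and its 3 receptors lay above the 6 activin and BMP receptors. Tgfb1 had the highest mean over the 9 libraries (34.1 CPM per kb), and stood at percentile 89.0 of the 18491 genes with a count. Tgfbr3 followed with 11.1 CPM per kb (percentile 74.8), Tgfbr2 with 2.97 (57.3) and Tgfbr1 with 2.19 (53.9), so that both kinases lay near the middle of these genes. The activin and BMP receptors lay between percentile 8.84 (Bmpr1a) and 39.0 (Acvr2a). Tgfb1 was above Tgfbr3, and Tgfbr3 above Tgfbr2, in 9 of 9 libraries. Tgfbr2 and Tgfbr1, the kinases that form the TGF-beta receptor, were neighbours in this order, with Tgfbr2 above Tgfbr1 in 8 of 9 libraries and a ratio of means of 1.36. Below them lay a gap of 5.67 fold. Acvr2a (0.385 CPM per kb) and Acvr2b (0.340), the type II receptors for activins, did not differ in a steady direction, as Acvr2a was above Acvr2b in 5 of 9 libraries. Bmpr2, a type II receptor for BMPs, had 0.121 CPM per kb, below Acvr2b in 9 of 9. This order depends on exon length, which was 17.98 kb for Bmpr2 and 3.928 kb for Acvr2b. Before division by length the mean of Bmpr2 was the higher (2.174 against 1.335 CPM). Per kilobase, Bmpr2 was above the activin type I receptor Acvr1b (0.0924) in 5 of 9. Acvr1 had 0.0811 and Bmpr1a, a type I receptor for BMPs, 0.0124 CPM per kb. Together the 6 activin and BMP receptors received 48 to 173 counts in a library, while Tgfbr1, Tgfbr2 and Tgfbr3 received 844 to 3063.

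**Figure D1:**
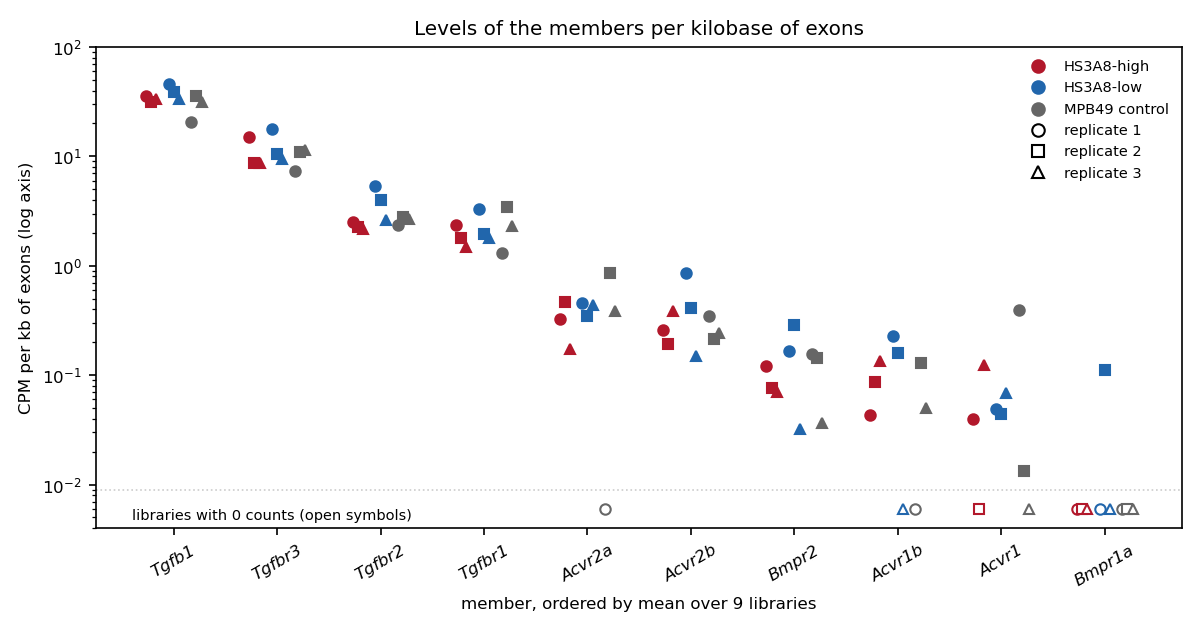
Level of each member in CPM per kilobase of exons (log axis) in the 9 libraries, ordered by the mean; colours are groups, symbols are replicates, and open symbols at the bottom are libraries with 0 counts. The TGF-beta ligand and its 3 receptors lie above 1 CPM per kb in every library and the 6 activin and BMP receptors below it.

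The 3 comparisons asked whether MEPs that differ in HS3A8 binding differ in these genes, and how each fraction relates to total MEPs. Of the 10 members, 7 passed the count filter in each comparison, and Acvr1, Acvr1b and Bmpr1a did not. Between HS3A8-high and HS3A8-low, edgeR's quasi-likelihood test with Benjamini-Hochberg adjustment called 0 members, beside 3.82% of the 11791 genes tested. Tgfbr2 alone had an unadjusted p under 0.05, which 19.8% of all genes had. The members' median log2 fold change was -0.40 (HS3A8-high over HS3A8-low) with 7 of 7 below 0, while the median of all genes was -0.03 and 53.4% were below 0. Libraries of both fractions that carry the same replicate number deviated together, so the test was also run with the replicate number as a block. The block was thus chosen from the same counts that the blocked test uses. With the block, edgeR called 1 member, Tgfbr2, and 11.6% of all genes. DESeq2 also called Tgfbr2 alone, beside 8.87% of all genes. So 1 of the 7 members tested stood beside these background shares.

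Tgfb1 encodes the TGF-beta ligand and was abundant in all groups. Its CPM were 181, 158 and 168 in replicates 1, 2 and 3 of HS3A8-high. They were 233, 197 and 170 in HS3A8-low. In the MPB49 control they were 104, 180.1 and 157. HS3A8-low replicate 3 lay within the HS3A8-high range, and control replicate 1 was the lowest of all. The means were 169 ± 11.8 CPM in the high and 199.9 ± 31.5 in the low fraction (SD, n = 3), a log2 fold change of -0.28 (SE 0.129, 95% interval -0.58 to 0.03, edgeR adjusted p = 0.294). With the replicate block the estimate was -0.27 (SE 0.0880, adjusted p = 0.102), and HS3A8-low was the higher library in each of the 3 pairs.

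Among the type I receptors, Tgfbr1 (ALK5, the partner of Tgfbr2) was the only one to pass the filter. In HS3A8-high its CPM were 15.3, 11.8 and 9.79. HS3A8-low gave 21.5, 12.7 and 11.7 CPM. The control gave 8.47, 22.3 and 15.1 CPM. All 3 groups overlapped, and HS3A8-low was the higher library in each pair. The log2 fold change between the fractions was -0.36 (SE 0.304, 95% interval -1.07 to 0.36, edgeR adjusted p = 0.580), and the blocked value was -0.33 (adjusted p = 0.262). Acvr1 (ALK2), a type I receptor used by BMPs and activins, had 3, 0 and 9 counts in the high fraction, 4, 3 and 4 in the low fraction and 21, 1 and 0 in the control. Acvr1b (ALK4), the type I receptor for activins, had 3, 5 and 9 counts in the high fraction, 17, 10 and 0 in the low fraction and 0, 9 and 3 in the control. Bmpr1a (ALK3) was found only in HS3A8-low replicate 2, with 10 counts. Each of these 3 type I receptors had at most 21 counts in any library and 0 in some, and their groups overlapped.

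Tgfbr2, the type II receptor that binds TGF-beta (chr9:116084293-116175360 on GRCm38, minus strand), was the member with the clearest difference between the fractions. HS3A8-high libraries had 20.6, 18.7 and 17.8 CPM, from 245 to 324 counts. In HS3A8-low they had 43.7, 32.7 and 21.5 CPM, from 258 to 741 counts. Control libraries ranged from 19.2 to 22.8 CPM. The fractions did not overlap, but HS3A8-low replicate 3 lay just above the highest HS3A8-high library and inside the control range, and the spread within HS3A8-low exceeded that of the other groups. Lack of overlap was found for this 1 of the 7 tested members and for 29.5% of all genes. The mean was 19.0 ± 1.43 CPM in the high and 32.6 ± 11.1 in the low fraction (SD, n = 3), so that the level was 1.76 fold in HS3A8-low. The log2 fold change was -0.81 (SE 0.257, 95% interval -1.42 to -0.21), with an unadjusted p of 0.0159 and an adjusted p of 0.140 in edgeR. It fell short of the threshold without the block and passed it with the block (log2 fold change -0.77, SE 0.181, adjusted p = 0.0481) and in DESeq2 (-0.79, adjusted p = 0.0445). Leaving out HS3A8-low replicate 3, one of the libraries with high granulocyte and monocyte markers, gave -1.03 and an adjusted p of 0.0482 in edgeR. Leaving out replicate 3 of both fractions gave -0.98 and 0.0524, and leaving out HS3A8-low replicate 1 gave -0.53 and 0.254. Megakaryocyte markers were also highest in HS3A8-low replicate 1 (499.6 CPM) and lowest of that fraction in replicate 3 (269 CPM). T and NK cell markers had the same order in HS3A8-low (227, 200.6 and 188 CPM). The control differed, as its replicate 1 had the highest control sums of both lists (334 and 115 CPM) and the lowest control Tgfbr2 (19.2 CPM). The part of these cells in the Tgfbr2 result was not tested.

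The other type II receptors were low. Acvr2a, which binds activins, had 1.84, 2.67 and 0.992 CPM in HS3A8-high. In HS3A8-low it ranged from 1.98 to 2.59 CPM. Control libraries ranged from 0 to 4.93 CPM, with 0 counts in replicate 1 and 77 in replicate 2, so the control covered both fractions. The log2 fold change between the fractions was -0.40 (SE 0.438, edgeR adjusted p = 0.671). Orc4, on the opposite strand, overlaps 7.84% of the exon bases of Acvr2a, and whether the counting used strand is not given in the sources used here. Acvr2b, its close relative, had 1.02, 0.763 and 1.52 CPM in HS3A8-high. In HS3A8-low it had 3.36, 1.63 and 0.584 CPM, so that HS3A8-low held both the highest and the lowest of the 6 values. Its log2 fold change was -0.80 (SE 0.657, edgeR adjusted p = 0.567). Bmpr2 had 2.16, 1.37 and 1.26 CPM in HS3A8-high. HS3A8-low again held both extremes, with 3.01, 5.16 and 0.584 CPM. Bmpr2 gave -0.90 (SE 0.710, 95% interval -2.58 to 0.78, edgeR adjusted p = 0.547). With the block it was -0.59, and among fits lacking 1 library it ranged from -1.37, when replicate 3 of the low fraction was left out, to -0.20, when replicate 2 of that fraction was.

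Tgfbr3, the co-receptor, had the highest level of the receptors among the 10 members and varied more between replicates than between fractions. Its CPM were 97.5, 56.6 and 56.9 in HS3A8-high. They were 115, 68.3 and 61.6 in HS3A8-low, and 48.4, 72.4 and 74.3 in the control. Replicate 1 was the highest library of each fraction and the lowest of the control. The log2 fold change was -0.25 (SE 0.310, 95% interval -0.99 to 0.48, edgeR adjusted p = 0.710). With the replicate block the estimate was the same to 2 decimals (-0.25) but its SE was 0.0819 (unadjusted p = 0.0233, adjusted p = 0.107), as HS3A8-low was the higher library in each pair. Without HS3A8-low replicate 1 and without the block, the direction turned (0.10). Gm43422, on the same strand, overlaps 4.54% of its exon bases. Over the 7 tested members, Tgfb1, Tgfbr1, Tgfbr2 and Tgfbr3 were higher in HS3A8-low in all 3 pairs, as were 25.7% of all genes.

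**Figure D2:**
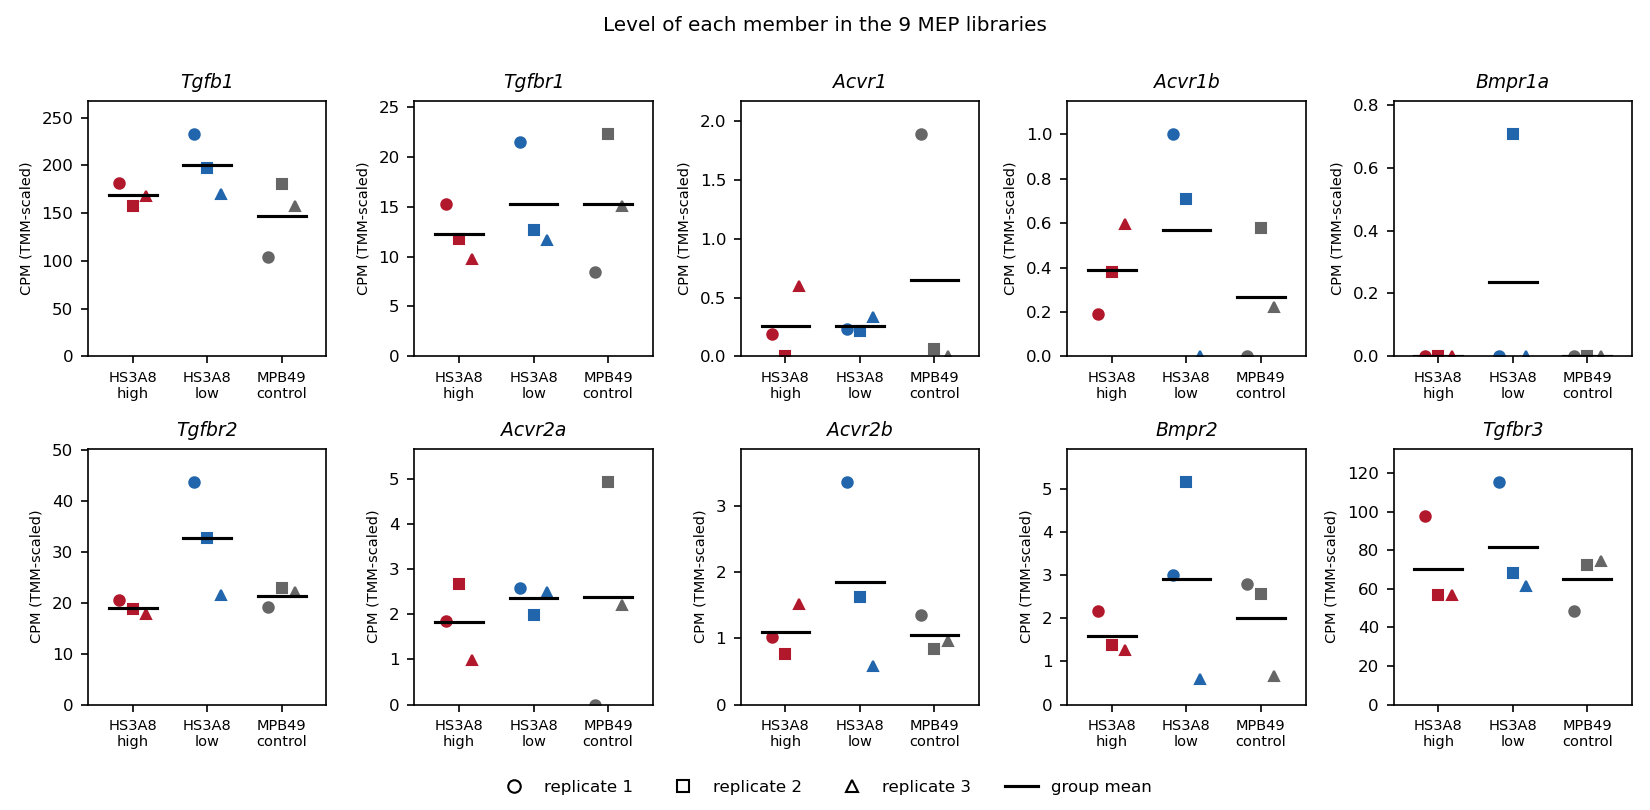
TMM-scaled CPM of the 10 members in each library (linear axes from 0, one scale per gene), by group; symbols are replicates and lines are group means of 3 libraries. Tgfbr2 is the tested member whose fractions do not overlap, with HS3A8-low replicate 3 (21.5 CPM) close to HS3A8-high replicate 1 (20.6 CPM).

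No member passed the test between either fraction and total MEPs. Against the MPB49 control, edgeR called 0 of 7 members in HS3A8-high (0.0174% of all genes), 0 had an unadjusted p under 0.05 (4.89%), and DESeq2 (0.986%) and the blocked fit (0%) also called 0. For HS3A8-low against the control the counts were again 0 in edgeR (0% of all genes), 0 at an unadjusted p under 0.05 (5.67%), 0 in DESeq2 (0.672%) and 0 with the block (0%). In both comparisons 0 of the 7 members had groups without overlap, beside 14.4% of all genes for HS3A8-high and 12.7% for HS3A8-low. For Tgfbr2 the log2 fold change over the control was -0.18 (SE 0.166, 95% interval -0.57 to 0.21, edgeR adjusted p = 0.734) in HS3A8-high. In HS3A8-low it was 0.59 (SE 0.267, 95% interval -0.03 to 1.22, edgeR adjusted p = 0.840). Both comparisons use the same 3 control libraries. Tgfb1 gave 0.18 (SE 0.211) for the high and 0.43 (SE 0.224) for the low fraction, and Tgfbr3 gave 0.10 (SE 0.269) and 0.32 (SE 0.279). Although the control stands for total MEPs, its means (147 CPM for Tgfb1, 65.0 for Tgfbr3) lay below those of both fractions. The cause was not tested. Intervals were widest for Acvr2a, from -3.08 to 2.26 in HS3A8-high over the control. The replicates of the control differed among themselves by a chi-square per degree of freedom of 149.8 to 196 in the pairs with replicate 1. In the other pair it was 9.61. Control replicate 1 was the lowest control library for Tgfb1, Tgfbr1, Tgfbr2, Tgfbr3, Acvr2a and Acvr1b, and the highest for Acvr1, Acvr2b and Bmpr2.

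**Figure D3:**
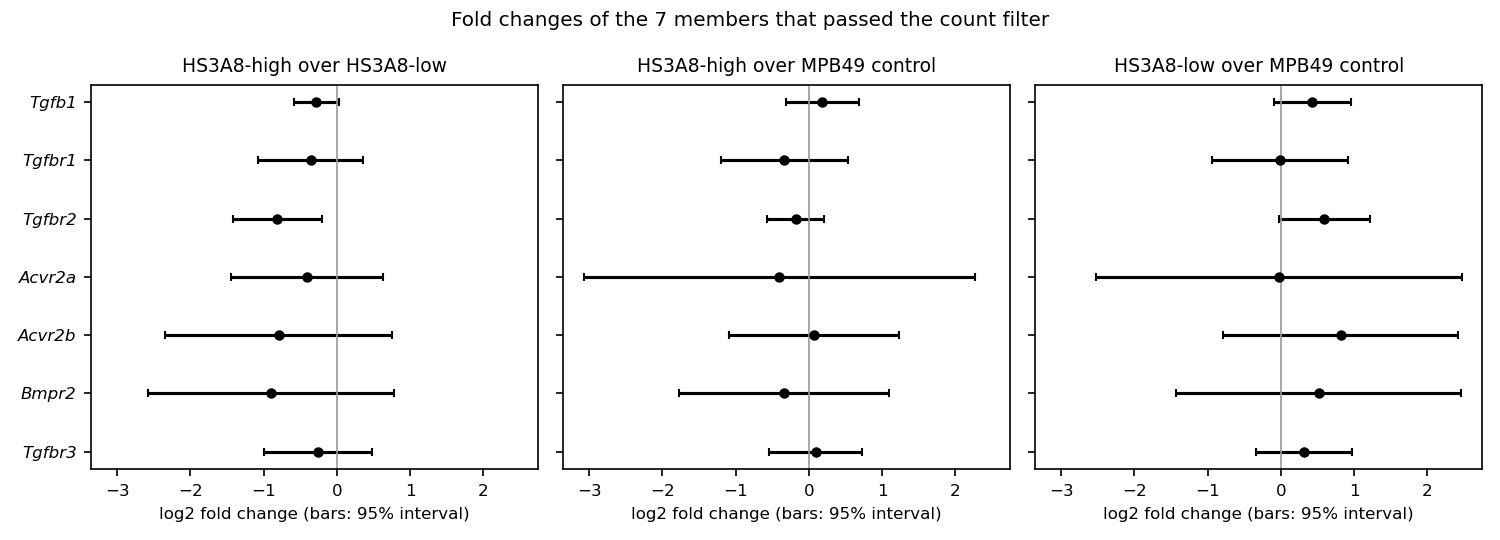
Log2 fold changes with 95% intervals (edgeR, without the block) of the 7 tested members in the 3 comparisons. In HS3A8-high over HS3A8-low all 7 points lie left of 0 and the interval of Tgfbr2 (-1.42 to -0.21) excludes 0; every interval against the MPB49 control includes 0.

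Ratios within a library do not depend on the scaling between libraries. Of 4 ratios of per-kilobase levels, chosen after the values were seen, Tgfbr2 over Tgfbr1 was 1.27 ± 0.187 in HS3A8-high and 1.72 ± 0.306 in HS3A8-low (SD, n = 3). In the control it was 1.26 ± 0.503, and its libraries ranged from 0.816 to 1.81, which covered the means of both fractions. Tgfbr3 over Tgfbr2 was 4.57 ± 1.18 in HS3A8-high and 3.17 ± 0.496 in HS3A8-low. The ligand Tgfb1 over Tgfbr2 was 14.4 ± 0.837 and 10.4 ± 2.15. Each of these 3 differed between the fractions in the same direction in 3 of 3 pairs. In a two-sided exact permutation test that ignored the pairs, each reached p = 0.1 (adjusted over the 4 ratios, 0.133). The value 0.1 is the smallest p that 3 against 3 libraries allow without pairs. Because the ratios were chosen after the values were seen, no conclusion is drawn from these p-values. Tgfbr3 over Tgfbr1 was 5.66 ± 0.798 in HS3A8-high and 5.34 ± 0.0655 in HS3A8-low (exact permutation p = 0.7, adjusted 0.7). In the control it was 4.62 ± 1.26. In all 3 of the first ratios Tgfbr2 is a term.

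The genes whose levels followed Tgfbr2 most closely over the 9 libraries were Gata2, Arhgap45 and Ptpre. Pearson's r of log2 CPM was 0.978 for Gata2, a transcription factor of stem cells and megakaryocyte and mast cell progenitors. It was 0.965 for Arhgap45 and 0.964 for Ptpre, a tyrosine phosphatase. Of the 9331 genes that averaged 5 CPM or more, 28 reached an r of 0.9 or more. The points share groups and replicate numbers, so r describes these libraries only. Among Tgfb1, Tgfbr1, Tgfbr2 and Tgfbr3, the only members correlated with each other, r was highest for Tgfbr1 and Tgfbr3 (0.81 over 9 libraries) and lowest for Tgfbr1 and Tgfbr2 (0.59).

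The other genes of the pathway were read from 6 lists with 102 genes in the table, of which 42 were tested between the fractions. edgeR called 4 of them, all higher in HS3A8-low (3.21% of all genes were), and with the block 8, of which 7 were higher in HS3A8-low (8.27% of all genes). The 42 genes had a median log2 fold change of -0.36, with 31 below 0. Of 31 further ligand genes, 15 had no count in any library and 2 were tested. Gdf3, a ligand of the nodal type, had 85.3 CPM in the high fraction and 71.4 in the low fraction (log2 fold change 0.22, SE 0.0845, edgeR adjusted p = 0.209). Lefty1, an inhibitor of nodal signalling, had 16.9 and 13.7 CPM (0.27, SE 0.159, edgeR adjusted p = 0.414). Tgfb2 and Tgfb3, the other TGF-beta ligands, were named after their values were seen. Their means over the 9 libraries were 0.0558 CPM, with counts in 2 libraries, and 0.530 CPM, with counts in 7.

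The list of extracellular control holds 22 genes that bind, store, release or block ligands of TGF-beta, activins or BMPs. Of the 9 tested, edgeR called 2 (3.82% of all genes). Ltbp3, a latent TGF-beta binding protein, had 4.64, 3.44 and 3.97 CPM in the high fraction and 13.4, 13.9 and 15.3 in the low fraction, with 7.66 to 11.9 in the control. The control lay between the fractions without overlap, and the level was 3.61 fold in HS3A8-low (log2 fold change -1.85, SE 0.221, edgeR adjusted p = 0.0135). Nrros, which anchors latent TGF-beta on myeloid cells, had 109.8, 108 and 129 CPM in the high fraction and 180.3, 155 and 197 in the low fraction. Its control values, 131 to 139.7 CPM, again lay between the fractions (log2 fold change -0.65, SE 0.123, edgeR adjusted p = 0.0389). Of 10 further receptors and co-receptors 2 were tested and 0 called by edgeR without the block (3.82% of all genes). An unadjusted p under 0.05 (19.8% of all genes) was found for 1, which DESeq2 also called (8.87%). That gene was Nrp1, a co-receptor that binds TGF-beta among other ligands, with 2, 0 and 19 counts in the high fraction and 51, 19 and 114 in the low fraction. It passed with the block (log2 fold change -3.77, SE 0.651, adjusted p = 0.0229) and not without it (-3.31, adjusted p = 0.206). Replicate 3 was the highest library of each fraction, as it was for the granulocyte and monocyte markers. Without the block, the log2 fold change of Nrp1 moved with the libraries used, from -5.94 without HS3A8-high replicate 3 (edgeR adjusted p = 0.0732) to -2.23 without HS3A8-low replicate 3 (0.400). It was -4.86 without both (0.0463), and the highest adjusted p, 0.440, came without HS3A8-high replicate 1. Eng (endoglin), the other one tested, is a co-receptor named after its values were seen. It had 121 to 136 CPM in the high fraction, 85.2 to 126 in the low fraction and 75.9 to 116 in the control (log2 fold change between the fractions 0.18, SE 0.151, edgeR adjusted p = 0.571).

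Inside the cell, the SMADs carry the signal, and 7 of the 8 were tested. With or without the block edgeR called 0 (11.6% and 3.82% of all genes). An unadjusted p under 0.05 was found for 2 (19.8% of all genes), and DESeq2 called 1 (8.87%). Smad2, which TGF-beta and activin receptors phosphorylate, had 66.5 to 69.8 CPM in the high fraction and 63.2 to 72.0 in the low fraction (log2 fold change -0.01, SE 0.0954, 95% interval -0.24 to 0.21, edgeR adjusted p = 0.954). Smad4, the shared partner of the receptor SMADs, had 35.1, 14.04 and 56.9 CPM in the high fraction and 74.3, 19.1 and 52.2 in the low fraction. Replicate 2 was the lowest library of both fractions, and the log2 fold change was -0.49 (SE 0.604, edgeR adjusted p = 0.711). Smad1, a SMAD of the BMP arm, was the one that DESeq2 called, and it was named after its values were seen. It had 4.67 CPM in the high fraction and 14.3 in the low fraction (log2 fold change -1.65, SE 0.437, edgeR adjusted p = 0.0929, DESeq2 adjusted p = 0.00484).

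Of 18 intracellular regulators, 16 were tested and 0 called by edgeR without the block (3.82% of all genes). Of the 16, 3 had an unadjusted p under 0.05 (19.8% of all genes), and DESeq2 called 2 (8.87%). The block added Fkbp1a and Usp15, which went in opposite directions. Fkbp1a (FKBP12), which binds type I receptors and holds them inactive, had 14.2, 16.9 and 28.4 CPM in the high fraction and 29.8, 33.1 and 57.1 in the low fraction. Replicate 3 was the highest of both fractions, and within pairs HS3A8-low was higher each time (blocked log2 fold change -1.05, SE 0.114, adjusted p = 0.00752; adjusted p without the block = 0.154). Usp15, a deubiquitinase of the receptor complex, had 419, 393 and 395 CPM in the high fraction and 339, 307 and 311 in the low fraction. It passed with the block as higher in HS3A8-high, the only tested pathway gene that did (blocked log2 fold change 0.30, SE 0.0584, adjusted p = 0.0298; adjusted p without the block = 0.0900).

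**Figure D4:**
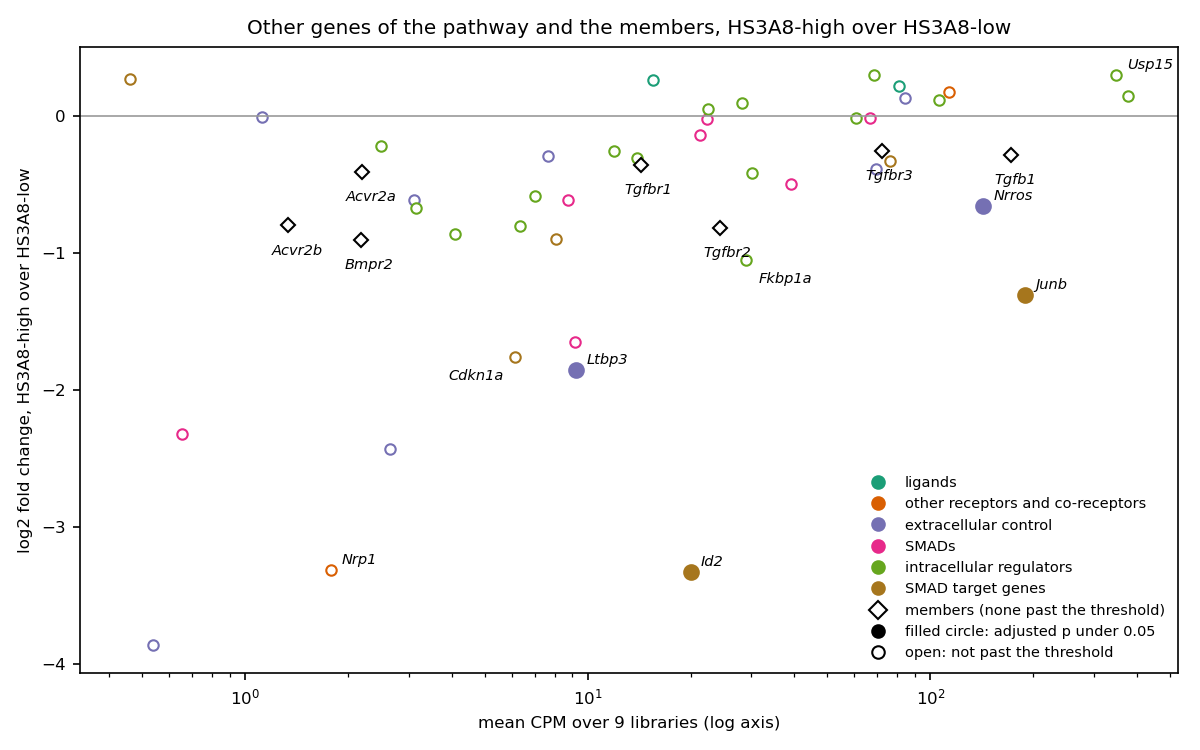
Log2 fold change of HS3A8-high over HS3A8-low against mean CPM over 9 libraries (log axis) for the 42 tested pathway genes (circles, coloured by list, filled where the edgeR adjusted p was under 0.05 without the block) and the 7 tested members (diamonds). The 4 filled genes lie below 0, from -0.65 for Nrros to -3.33 for Id2; Nrp1, Fkbp1a, Cdkn1a and Usp15 passed with the block.

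Of 13 SMAD target genes 6 were tested, and 2 were called without the block (3.82% of all genes), both higher in HS3A8-low (3.21%). Id2, an inhibitor of basic helix-loop-helix factors and a target of BMP SMADs, had 2.48, 2.06 and 7.94 CPM in the high fraction and 41.1, 40.3 and 41.7 in the low fraction. The control lay between, with 9.35 to 21.9 CPM (log2 fold change between the fractions -3.33, SE 0.512, edgeR adjusted p = 0.0257). Id1 and Id3, on the same list, were low and were named after their values were seen. Id3 had 0.594 CPM in the high and 0.471 in the low fraction (log2 fold change 0.27, SE 1.19, edgeR adjusted p = 0.928). Id1 had means of 0.545 and 1.35 CPM, with 0.0589 to 3.84 in the low fraction, and was not tested. Junb, an AP-1 factor that TGF-beta and many other stimuli induce, had 94.0, 94.5 and 123 CPM in the high fraction and 256, 233 and 262 in the low fraction (log2 fold change -1.31, SE 0.129, edgeR adjusted p = 0.00868). Control replicate 1 had 367 CPM, above every sorted library, against 135 and 141 in the other control libraries. Junb shares 7.52% of its exon bases with Prdx2 on the opposite strand. Cdkn1a, a cell cycle inhibitor, had 1.78, 2.06 and 5.95 CPM in the high fraction and 10.6, 9.48 and 12.4 in the low fraction, and passed with the block (log2 fold change -1.94, SE 0.356, adjusted p = 0.0261) and not without it (adjusted p = 0.106). The stem, T and NK cell, B cell, endothelial, mesenchymal stroma and megakaryocyte marker sums were higher in HS3A8-low as well. Granulocyte and monocyte, basophil and mast cell, and macrophage sums overlapped between the fractions, but within each pair HS3A8-low was higher. For granulocyte and monocyte markers the pairs had 25.1 and 168, 13.2 and 308, and 2029 and 5166 CPM (HS3A8-high first). Their part in the pathway results was not tested. With both replicate 3 libraries left out, edgeR called 10 pathway genes and 0 members, beside 748 of the 11898 genes tested. In that fit the edgeR adjusted p was 0.0220 for Ltbp3, 0.0393 for Nrros, 0.00178 for Id2 and 0.00302 for Junb. Without HS3A8-low replicate 2 the count was 0 pathway genes, beside 0 of all genes. It was 1 without HS3A8-high replicate 1, HS3A8-high replicate 2 or HS3A8-low replicate 1, beside 42, 53 and 56 of all genes.

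**Figure D5:**
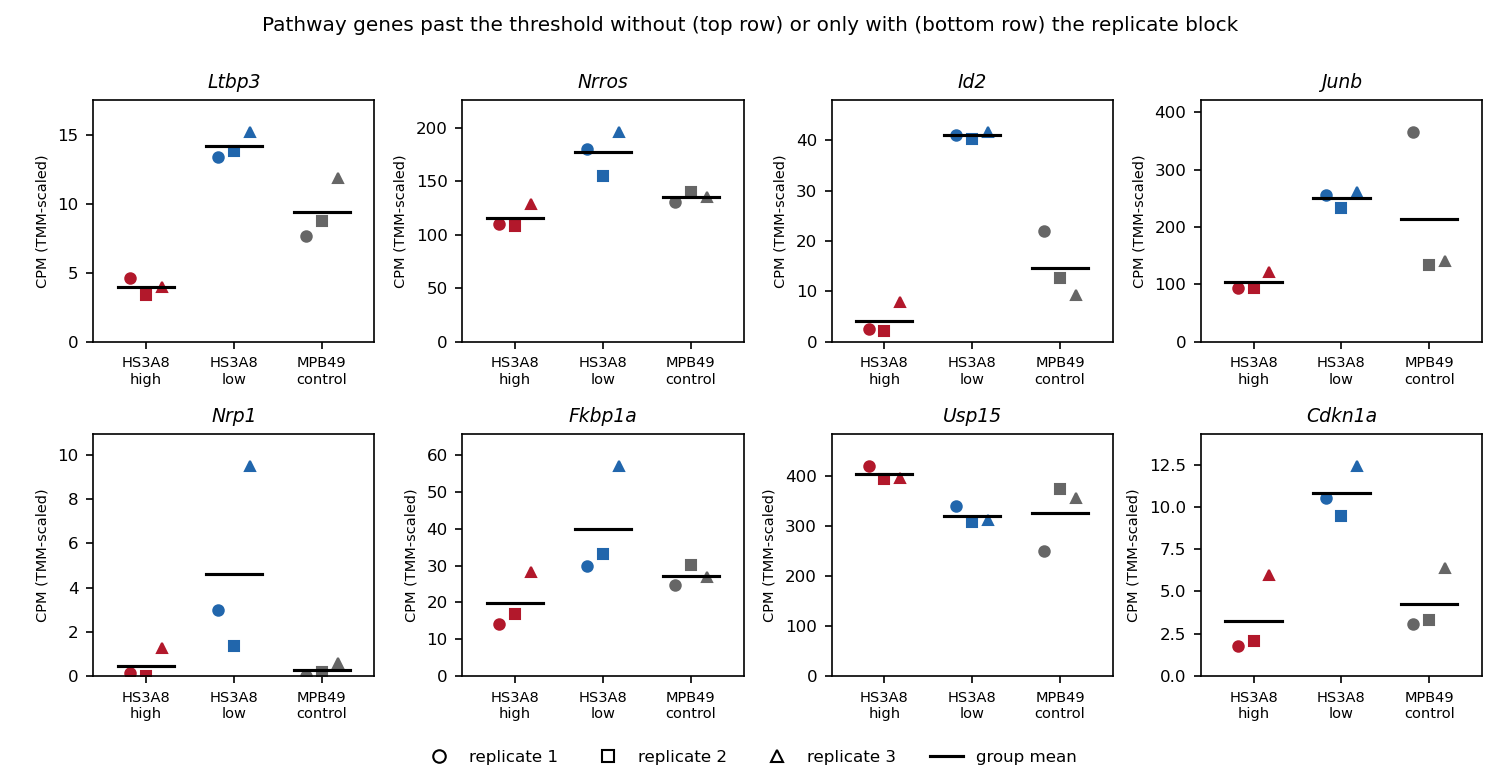
TMM-scaled CPM (linear axes from 0, one scale per gene) of the pathway genes called without the block (top) and those called only with it (bottom); symbols are replicates and lines group means. HS3A8-low lies above HS3A8-high in every gene but Usp15, and control replicate 1 stands apart for Junb (367 CPM).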

How the data were processed

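The files hold raw counts per gene for 9 libraries, whole numbers that the authors deposited without normalization or pooling. Submitters' processing notes name STAR 2.5, HTSeq 0.6.1 and mm10. The annotation release and the strand setting are not given in the sources used here. Identifiers were joined to GENCODE M21 (34490 matched, 16617 had no count). Members were taken by symbol, and members and lists were chosen with earlier results of these data known.

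Counts were tested in R 4.3.3 with the quasi-likelihood test of edgeR 4.0.16 (TMM, filterByExpr, only the 2 groups compared, Benjamini-Hochberg over all tested genes, threshold 0.05). Pathway genes are named where the adjusted p was under 0.05 between the fractions with or without the replicate block, and otherwise as the 2 highest of their list. For a called member the 3 genes with the highest r are named. Log2 CPM for r used a prior count of 2. Alternatives were DESeq2 1.42.0, its size factors, other count filters, all 9 libraries in 1 fit, the replicate block and leaving out each library. Leaving out both replicate 3 libraries was added after seeing the data. Methods were tested on simulated counts.

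For pairing, deviations from the group mean were correlated over 12108 genes. Same-numbered libraries of HS3A8-high and HS3A8-low had r of 0.325 to 0.509, so the numbers were taken as pairs. Those with the control had r from -0.346 to 0.0317 and were not. No protein sequences were used here.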

Additional observations from a re-analysis of the deposited data

How the results depend on the processing

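Between the fractions, the count of all genes called went from 451 to 1224 with the DESeq2 test and 1367 with the replicate block, that of members from 0 to 1 and 1, and that of pathway genes from 4 to 10 and 8. With 1 library or both replicate 3 libraries left out, the ranges were 0 to 748 genes, 0 to 1 members and 0 to 10 pathway genes. The counts of genes were 42, 53, 56, 0 and 244 without HS3A8-high replicate 1, HS3A8-high replicate 2, HS3A8-low replicate 1, HS3A8-low replicate 2 and HS3A8-low replicate 3. Without HS3A8-low replicate 2, where edgeR called 0, 1900 genes had an unadjusted p under 0.05. For HS3A8-high against the control, 2 genes became 140 (DESeq2, with 1 pathway gene), 9 (no count filter), 32 (all 9 libraries in 1 fit), 0 (replicate block) and 0 to 5 (1 library left out). For HS3A8-low against the control, 0 genes became 93 and 0 pathway genes 2 with DESeq2. The cause of these shifts was not tested.

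Directions turned only for members that were not called. The block gave 0.21 for Acvr2a in HS3A8-high over the control, and in HS3A8-low over the control 0.69 for Acvr2a and 0.015 for Tgfbr1. The numbers did not pair with the control, so these fits share only a number. With 1 library left out, values ranged from -0.56 to 0.10 for Tgfbr3 between the fractions. In HS3A8-high over the control they ranged from -0.61 to 0.041 for Tgfbr1, -0.97 to 0.69 for Acvr2a, -0.24 to 0.30 for Acvr2b and -0.20 to 0.23 for Tgfbr3. In HS3A8-low over the control they ranged from -0.34 to 0.35 for Tgfbr1, -0.60 to 1.06 for Acvr2a, -0.17 to 1.01 for Bmpr2 and -0.013 to 0.49 for Tgfbr3. In 1 fit of all 9 libraries Junb gave -1.28 with an adjusted p of 0.130. The block changed no call beyond those given. Of the fold changes under alternatives, 316 kept their direction and side of the threshold, 15 passed it, 15 lost it and 17 turned, and 60 of 60 recomputed mean levels moved by less than the spread between replicates. Activin and BMP receptors are limited by depth, with at most 173 counts over 6 genes in a library.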
